A study of Mus musculus with 8 samples.

Results

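The genes of chromosomal DNA replication were followed in nascent RNA of mouse embryonic stem cells in which the chromatin protein CTCF can be degraded. The set holds 49 genes chosen by name for their part in replication, from origin recognition to chromatin assembly behind the fork. A row with the gene's symbol was present for 48 of them among the 16940 genes listed, and all 48 had a mean above the minimum of 10 normalized reads used for testing. Cdt1, the factor that delivers the MCM helicase to origins, was not analysed here. The choice used no measured value of these libraries, but it was made with earlier results of the same data known. A member is described as called, and as having risen or fallen, where its adjusted p was under 0.05.

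The cells were the E14 line, grown on gelatin in serum-free medium with leukaemia inhibitory factor and the inhibitors PD0325901 and CHIR99021. They were labelled with 400 µM 4-thiouridine for 15 min, and the labelled RNA was captured and sequenced (TT-seq, which reads RNA made during the pulse). All 4 groups carried CTCF fused to an auxin-inducible degron (AID), through which the auxin IAA triggers destruction of the tagged protein, and all carried an overexpression construct. The untreated control was the overexpression control line without IAA. The IAA control was the same line after 12 h of IAA. The wild-type CTCF group overexpressed wild-type CTCF and the mutated CTCF group overexpressed mutated CTCF, each after 12 h of IAA. The labels do not name the mutation, the content of the control construct or whether a line is 1 clone, and no group with overexpressed CTCF was left without IAA. Each group had 2 replicates, and nothing in the labels says that these were separate cultures. The p-values therefore rest on the spread between these libraries, which may be technical. That spread was pooled over the groups and drawn towards that of genes of similar level, so it is not a gene's own spread alone. The Ctcf gene itself was not analysed here.

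Replication starts in G1 phase, when the origin recognition complex, Cdc6 and Cdt1 load the ring of MCM2-7 onto DNA, a step called licensing that geminin blocks. In S phase the Cdc7-Dbf4 kinase, Mcm10, Cdc45 and the GINS complex turn the ring into a moving helicase, and polymerases, clamp, clamp loader and single-strand binding protein follow it. Many of these genes are textbook targets of the E2F transcription factors, which rise towards S phase. Embryonic stem cells spend most of their short cycle in S phase and express the set at high levels.

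To show the promoters behind the set, the 250 bases before each RefSeq start were searched for E2F words, TTTGGCGC, TTTCCCGC, TTTCGCGC or TTTGCCGC, on both strands. RefSeq promoters (GRCm38.p6) were matched for 39 of the 48 members, with 48 starts in all. A word was present before 9 of the 48 starts (18.8%), which belong to 9 genes, against 1.86% of all 32841 promoters of that length. Among genes tested here the share was 9 of 39 members (23.1%) against 3.83% of the 11346 genes with a promoter entry. The stretches around these words follow, 5′ to 3′ on the gene's strand, with the words in capitals; overlapping words run together. The stretches of Mcm5, Mcm6, Orc3 and Pola1 lie before the start of the GENCODE gene too. The others lie at or inside the outermost start that GENCODE gives.
Cdc6: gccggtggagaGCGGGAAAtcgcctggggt
Orc1: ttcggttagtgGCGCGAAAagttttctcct
Orc3: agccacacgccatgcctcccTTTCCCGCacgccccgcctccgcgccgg
Mcm5: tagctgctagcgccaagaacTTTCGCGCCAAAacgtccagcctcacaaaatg
Mcm6: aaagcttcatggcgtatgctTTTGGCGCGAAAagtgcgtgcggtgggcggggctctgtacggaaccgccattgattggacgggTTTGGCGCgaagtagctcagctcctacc
Mcm7: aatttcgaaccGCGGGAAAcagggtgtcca
Gins3: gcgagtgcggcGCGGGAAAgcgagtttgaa
Pola1: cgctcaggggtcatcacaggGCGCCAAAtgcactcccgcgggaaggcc
Rfc3: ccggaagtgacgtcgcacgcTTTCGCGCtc

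The stretches lie at chr11:98908002-98908031 (plus strand) for Cdc6, chr4:108579416-108579445 (plus) for Orc1 and chr4:34614956-34615003 (minus) for Orc3. Those of the helicase genes lie at chr8:75109336-75109387 (plus) for Mcm5, chr1:128359725-128359835 (minus) for Mcm6 and chr5:138172030-138172059 (minus) for Mcm7. The remaining stretches lie at chr8:95633507-95633536 (plus) for Gins3, chrX:93632266-93632313 (minus) for Pola1 and chr5:151651209-151651238 (minus) for Rfc3. The first base of a word lay from 165 bases (Mcm7) to 10 bases (Rfc3) before the start. Mcm6 held 3 words, of which 2 overlapped, and the 2 words of Mcm5 overlapped. The NFY box CCAAT was present before 25 of the 48 starts (52.1%, against 33.9% of all promoters), and a core of the CTCF motif before 11 (22.9%, against 23.6%). Over tested genes with an entry, 61.5% of members held the NFY box against 41% of all, and 25.6% of members held the CTCF core against 33.6% of all. The core searched was the word AGGGGGC, the word AGGTGGC, the word AGATGGC or the word AGAGGGC, on either strand. A match is a description of the letters and not evidence of binding.

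The libraries held 15671114 to 21561141 recovered reads, and the 2 IAA control libraries, at 15671114 and 17187354, were the shallowest. The table lists all 8 embryonic stem cell markers examined, with a summed level of 50301 to 54441 normalized reads in the 4 control libraries and 57431 to 61546 in the 4 with overexpressed CTCF. None of 6 feeder fibroblast markers is listed. Of the endoderm markers 2 of 5 are listed (154.7 to 229.9 summed), of the mesoderm markers 2 of 4 (42.84 to 93.07) and of the neural markers 1 of 4 (3.134 to 19.23); Sox17, Foxa2, Mesp1 and Sox1 are among those not listed. With IAA 2 of the 8 stem cell markers rose and 2 fell, where 19.4% and 18.4% of all genes did. Against the IAA control 5 rose with wild-type CTCF (4 under median-of-ratios scaling) and 6 with mutated CTCF (5 under either rescaling), and none fell. Of all genes, 21.5% rose and 10% fell with wild-type CTCF, and 22.0% rose and 12.4% fell with mutated CTCF. All 8 marker values with mutated CTCF were above 0, or 7 under either rescaling. The 6 called markers rose in the same comparison in which the 28 called members did. Tfcp2l1 had 13254 and 13623 in the untreated control and 17837 to 19389 in the other libraries, while Esrrb went from 15289 and 15640 to 13724 and 14250 in the IAA control and Zfp42 from 10059 and 9982 to 9043 and 8980. Nanog had 5172 to 5271 in the controls and 5697 to 6824 with overexpressed CTCF. The part of these markers in the results below was not tested. In bulk RNA, fewer cells that transcribe a gene and less RNA per cell cannot be told apart.

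The set was transcribed at high levels. Per kilobase of gene body, the median member had 67.16 normalized reads (quartiles 39.28 and 104.2), against 17.76 (4.235 and 43.86) for the 13130 protein-coding genes tested. The range ran from 14.58 per kilobase for Pold1, the catalytic subunit of polymerase delta, to 467.9 for Pcna, the sliding clamp. The source of the counts within a gene (exons alone or introns too) is not stated. Over the 48 members the level correlated more with gene length (Spearman 0.689) than with exon length (0.367), while over the 13130 protein-coding genes these were 0.363 and 0.383, as descriptions across genes. Pola1, 327.4 kb long, had 84.47 normalized reads per kilobase of gene and 3138 per kilobase of exon.

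The members varied little between groups. The ratio of a member's highest to lowest group mean was 1.04 to 1.48 with a median of 1.17, and no member reached 1.5. Over all 15818 genes tested the median ratio was 1.32, and 5056 genes reached 1.5. The IAA control had the lowest mean of the 4 groups for 31 of the 48 members. The highest mean was in the mutated CTCF group for 21 members, in the wild-type CTCF group for 19, in the untreated control for 6 and in the IAA control for 2. These counts were not made over all genes, so they cannot be read as a trait of the set. The median-of-ratios factors were 0.976 to 0.9966 in the control libraries and 1.007 to 1.044 with overexpressed CTCF. Genes in general thus read somewhat lower in the controls. The IAA control libraries enter 3 of the comparisons below, so a low value there lowers the first and raises the other 2.

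With IAA in the control line, 16 of 48 members were called, 33.3% against 37.7% of all genes tested. Of these, 15 fell, where 18.4% of all genes did, and 1 rose, where 19.4% of all genes did. The members' median log2 change was -0.0562, beside -0.0017 for all genes. With wild-type CTCF against the IAA control, 26 members were called (54.2%, against 31.6%). Of these, 24 rose (21.5% of all genes) and 2 fell (10% of all genes), with a median of 0.141 beside 0.057 for all genes. With mutated CTCF against the IAA control, 28 members were called (58.3%, against 34.3%), and all 28 rose (22.0% of all genes rose and 12.4% fell), with a median of 0.156 beside 0.055. The gap between the members' and the all-gene median was -0.054 with IAA, 0.084 for wild-type and 0.1 for mutated CTCF. A rescaling shifts all genes of a library nearly alike, so it could hardly move this gap (-0.055 with IAA at the same total). It therefore says nothing about how stable the gap is. Leaving out single libraries could move the gap, and did so with IAA. Without IAA control replicate 2 the medians were -0.0358 for members and -0.016 for all genes. Without untreated control replicate 2 they were -0.0233 and 0.013.

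These shares depend on the fit, the scaling and single libraries. The members are well expressed, and their median standard error on the log2 scale was 0.055, beside 0.1 for all genes, so smaller changes passed. A fit without a trend of variance on level called 9 members with IAA (18.8%, against 24.9% of all genes), 5 with wild-type CTCF (10.4%, against 15.0%) and 9 with mutated CTCF (18.8%, against 20.4%). Leaving out replicate 2 of the untreated control left 10 members called with IAA (20.8%, against 27.1%). Leaving out wild-type CTCF replicate 2 left 12 (against 20.7% of all genes), and leaving out IAA control replicate 1 left 14 (29.2%, against 21.4%). For mutated CTCF, leaving out its replicate 2 left 16 (33.3%, against 25.9%), and so did leaving out IAA control replicate 1 with 3959 genes called in all. The members called in all 14 alternative settings were 5 of 16 with IAA (Gins2, Mcm10, Rfc3, Rfc4 and Rrm2), 4 of 26 with wild-type CTCF (Cdc6, Rfc3, Rfc5 and Rrm2) and 9 of 28 with mutated CTCF (Chaf1b, Gins2, Mcm10, Mcm4, Orc1, Orc5, Rfc4, Rrm2 and Tipin). Every call with IAA was kept in 10 or more settings. With wild-type CTCF the least stable calls were Chaf1a (kept in 5), Mcm10 (7), Pole and Pcna (8), and Mcm3 and Gins2 (9). With mutated CTCF they were Rfc3 (5), Gins1 (7), Mcm7 and Pold3 (8), and Orc3, Dbf4, Cdc6 and Gins4 (9). Replicate 2 read above replicate 1 for 41 of 48 members in the wild-type CTCF group, with a median log2 difference of 0.073, beside 0.05 for all genes. The other groups had 27 to 37 such members and medians of 0.019 to 0.042. Changes were small: 2 members moved by at least 0.5 on the log2 scale with IAA, where 17.6% of all genes did, 2 did so for the wild-type form (12.8%), and 0 for the mutated form (13.6%).

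**Figure D1:**
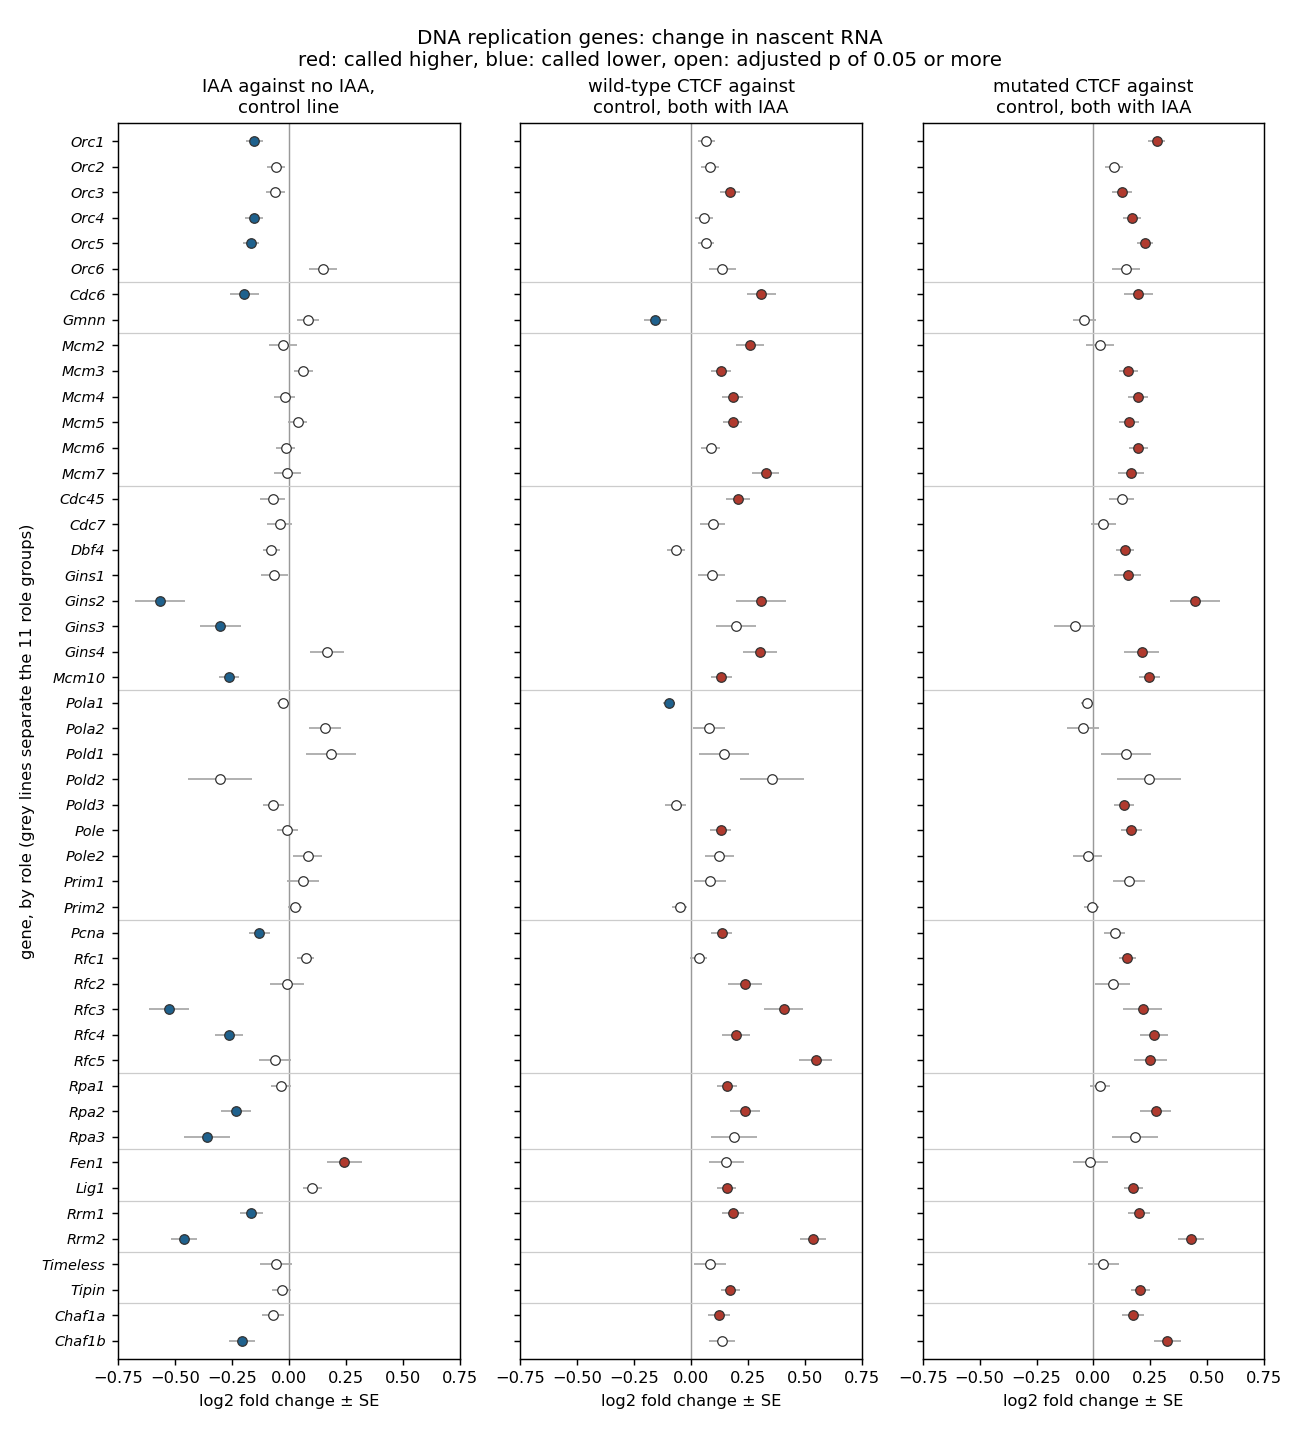
Log2 fold change of each of the 48 members (x axis, with its standard error) in 3 comparisons, with the genes on the y axis in 11 role groups. Filled points were called and open points were not; with IAA 15 members fell and 1 rose, while 24 rose with the wild-type form and 28 with the mutated form.

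The origin recognition complex marks where replication can start. With IAA 3 of its 6 genes fell (18.4% of all genes did). With wild-type CTCF 1 rose (16.7% called, against 31.6% of all genes), and with mutated CTCF 4 rose (66.7% called, against 34.3%). After rescaling to the same total 5 fell with IAA, and after median-of-ratios rescaling 3 fell and 1 rose there and 3 rose with mutated CTCF. Orc1, the largest subunit and an ATPase, had 4191 and 4265 normalized reads in the untreated control, 3757 and 3851 in the IAA control, 3879 and 4090 with wild-type CTCF and 4653 and 4562 with mutated CTCF. The mutated CTCF libraries were above all 6 others, and the IAA control and wild-type CTCF ranges lay side by side at the bottom. Orc1 fell with IAA by 0.15 on the log2 scale (SE 0.038, limma adjusted p = 0.0012) and rose with mutated CTCF by 0.28 (SE 0.038, adjusted p = 2.0e-07), while its value with wild-type CTCF was 0.07 (SE 0.038) and was not called. The adjusted p of its change with IAA was 0.073 without the variance trend. Its gene overlaps Gm12743 on the other strand, at 0.19 with IAA and -0.13 with mutated CTCF, neither called.

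Orc5 and Orc4, further subunits of the complex, had the same order of groups. Orc5 had 6794 and 7193 in the untreated control, 6219 and 6235 in the IAA control, 6475 and 6545 with wild-type CTCF and 7278 and 7297 with mutated CTCF. No library of the mutated CTCF group overlapped another group. The log2 change of Orc5 was -0.17 with IAA (adjusted p = 1.1e-04) and 0.23 with mutated CTCF (adjusted p = 1.0e-06). Orc4 was at -0.15 with IAA (adjusted p = 0.0016) and 0.17 with mutated CTCF (adjusted p = 6.4e-04). Mbd5, which overlaps Orc4 on the other strand, went the other way with mutated CTCF, at -0.22 (adjusted p = 7.4e-07). Orc3 rose with wild-type CTCF by 0.17 (adjusted p = 0.0019) and with mutated CTCF by 0.12 (adjusted p = 0.02). The second value was 0.0731 under median-of-ratios scaling (adjusted p = 0.15), and without IAA control replicate 2 its adjusted p was 0.18. Orc2 was not called in these 3 comparisons. Orc6, a small subunit, had 774 and 801.7 in the untreated control, 906.5 and 840.3 in the IAA control, 920.6 and 1000 with wild-type CTCF and 940.3 and 988.6 with mutated CTCF. Orc6 was lowest in the untreated control and was not called in these 3 comparisons.

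The licensing genes gave opposite values with wild-type CTCF. Cdc6, an ATPase that loads the helicase with the origin complex, had 768.1 and 817.2 normalized reads in the untreated control, 698 and 685.2 in the IAA control, 805.2 and 911.5 with wild-type CTCF and 796.1 and 789.9 with mutated CTCF. Both IAA control libraries were below all others, and wild-type CTCF replicate 2 was the highest. Cdc6 fell with IAA by 0.20 on the log2 scale (SE 0.065, adjusted p = 0.015), and rose with wild-type CTCF by 0.31 (adjusted p = 2.8e-04) and with mutated CTCF by 0.20 (adjusted p = 0.015). The rise with wild-type CTCF was called in all 14 alternative settings. The fall was -0.151 without untreated control replicate 2 (adjusted p = 0.19), and the rise with mutated CTCF was 0.184 without IAA control replicate 2 (adjusted p = 0.088). Gmnn encodes geminin, which holds Cdt1 inactive after licensing. It had 1503 and 1495 in the untreated control, 1609 and 1568 in the IAA control, 1465 and 1385 with wild-type CTCF and 1575 and 1516 with mutated CTCF. The wild-type CTCF libraries were the lowest, and Gmnn fell there against the IAA control by 0.16 (SE 0.05, adjusted p = 0.014). Its values with IAA (0.08) and with mutated CTCF (-0.04) were not called. Without wild-type CTCF replicate 2 the fall was -0.117 with an adjusted p of 0.17.

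The MCM2-7 genes encode the 6 subunits of the ring that unwinds DNA. None of the 6 was called with IAA, where 37.7% of all genes were, and their log2 changes were -0.03 to 0.06. With wild-type CTCF 5 of 6 rose (21.5% of all genes did), and with mutated CTCF 5 of 6 (22.0% of all genes). Under median-of-ratios scaling 4 of 6 rose in each. The summed level of the 6 genes was 12933 and 13256 normalized reads in the untreated control and 13241 and 13179 in the IAA control. It was 14368 and 15395 with wild-type CTCF and 14265 and 15287 with mutated CTCF, so the groups with overexpressed CTCF did not overlap the controls.

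Mcm2, whose tail also carries histones, had 1202 and 1283 in the untreated control, 1230 and 1210 in the IAA control, 1340 and 1592 with wild-type CTCF and 1181 and 1313 with mutated CTCF. The wild-type CTCF libraries were above the 6 others and differed from each other by more than the control groups did. Mcm2 rose with wild-type CTCF by 0.26 (SE 0.061, adjusted p = 0.0012), and its value with mutated CTCF was 0.03 and not called. Without wild-type CTCF replicate 2 the value was 0.135 with an adjusted p of 0.13.

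Mcm3 had 2854 and 2980, then 3020 and 3079, then 3218 and 3466, then 3305 and 3479 normalized reads, in the order of groups just given. Mcm4 had 1990 and 2000, 2014 and 1924, 2226 and 2240, and 2191 and 2322. Mcm5 had 2619 and 2609, 2669 and 2697, 2962 and 3130, and 2904 and 3077. For each of these ring subunits every library with overexpressed CTCF was above every control library. The log2 changes of Mcm3, Mcm4 and Mcm5 were 0.13, 0.18 and 0.18 with wild-type CTCF (adjusted p = 0.015, 0.0019 and 8.8e-04) and 0.15, 0.20 and 0.16 with mutated CTCF (adjusted p = 0.004, 6.5e-04 and 0.0034). The adjusted p of Mcm3 with wild-type CTCF was 0.098 after median-of-ratios rescaling. Over the 14 alternative settings this value of Mcm3 was 0.0753 to 0.185, and 9 kept the call.

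Mcm6 had 3030 and 3140 in the untreated control, 3093 and 3013 in the IAA control, 3132 and 3354 with wild-type CTCF and 3405 and 3597 with mutated CTCF. Only the mutated CTCF libraries were clear of the controls, and wild-type CTCF replicate 1 lay within the control range. Mcm6 rose with mutated CTCF by 0.20 (SE 0.042, adjusted p = 2.5e-04) and was at 0.09 with wild-type CTCF, not called. Mcm7 had 1238 and 1244, then 1215 and 1256 in the controls, 1490 and 1613 with wild-type CTCF and 1279 and 1499 with mutated CTCF. Every library with overexpressed CTCF was above the controls, by little in mutated CTCF replicate 1. Mcm7 rose with wild-type CTCF by 0.33 (SE 0.058, adjusted p = 2.7e-05) and with mutated CTCF by 0.16 (adjusted p = 0.025). Without mutated CTCF replicate 2 the value was 0.0499 with an adjusted p of 0.63. Mcm7 overlaps Cops6 and Ap4m1 on the other strand; with wild-type CTCF Cops6 was at 0.29 (adjusted p = 0.027) and Ap4m1 at 0.26 (adjusted p = 0.077). The libraries were strand-specific, but whether counting used the strand is not stated, so for overlapping pairs the 2 genes' reads may not be separated.

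**Figure D2:**
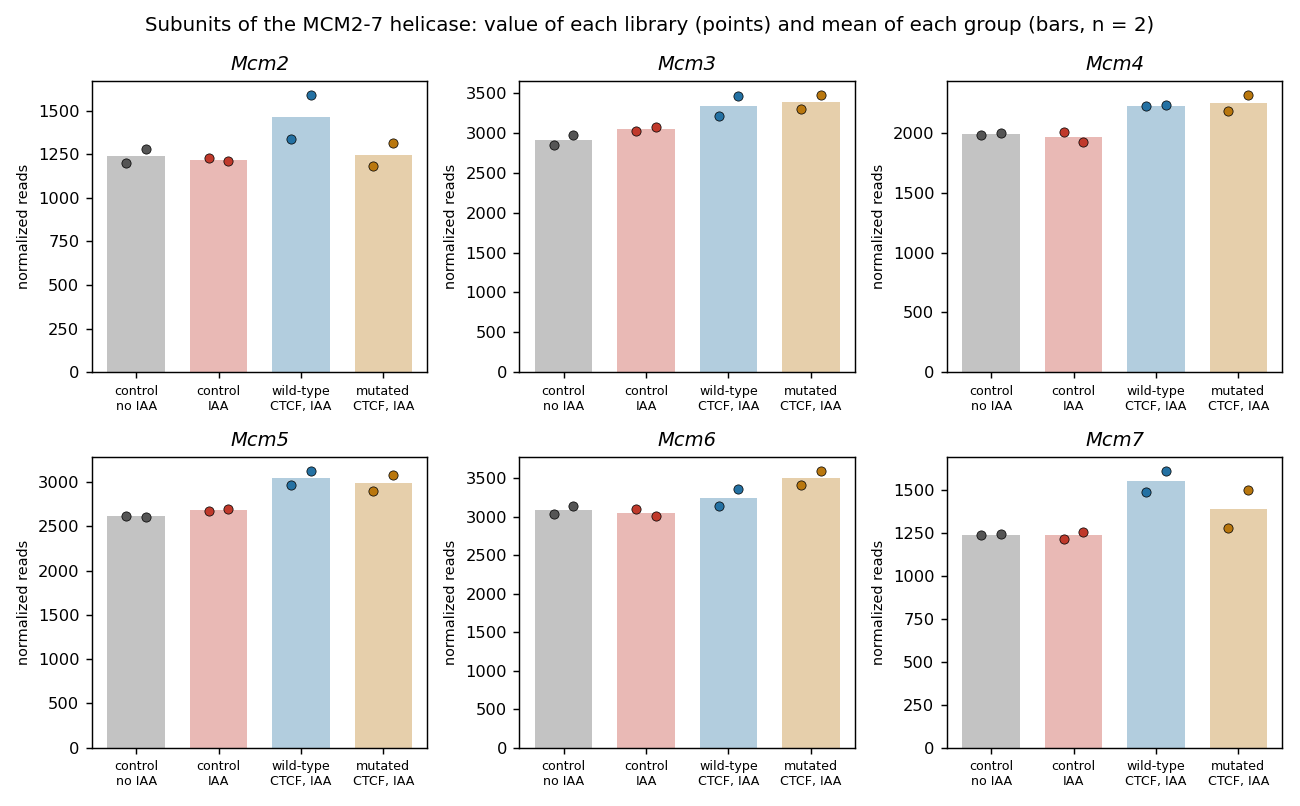
Normalized reads (y axis, from 0) of the 6 MCM2-7 genes in the 4 groups (x axis), with a point per library and a bar at the mean of 2 replicates. The 2 control groups lie close together for each gene, and Mcm2 and Mcm7 are highest with wild-type CTCF while Mcm6 is highest with mutated CTCF.

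The genes that turn the loaded ring into an active helicase changed by -0.57 to 0.17 on the log2 scale with IAA. There 3 of these 8 genes fell (37.5% called, against 37.7% of all genes). With wild-type CTCF 4 rose (50% called, against 31.6%) and with mutated CTCF 5 rose (62.5%, against 34.3%). Under median-of-ratios scaling 3 fell and 1 rose with IAA, 2 rose and 1 fell with wild-type CTCF, and the mutated form gave 2 that rose. Gins2 encodes a subunit of GINS, the complex that joins Cdc45 and MCM2-7 in the moving helicase. It had 282.5 and 259.5 normalized reads in the untreated control, 172.7 and 192.5 in the IAA control, 210.7 and 241.8 with wild-type CTCF and 231.9 and 266.9 with mutated CTCF. The IAA control libraries were the lowest, and both untreated libraries were above both wild-type CTCF libraries. Gins2 fell with IAA by 0.57 on the log2 scale (SE 0.11, adjusted p = 4.3e-05) and rose with mutated CTCF by 0.45 (SE 0.11, adjusted p = 0.0011) and with wild-type CTCF by 0.31 (SE 0.11, adjusted p = 0.027). The first of these changes and the one with mutated CTCF were called in all 14 alternative settings, and the one with wild-type CTCF in 9 (0.208 without its replicate 2, adjusted p = 0.26). Galnt2l, which overlaps Gins2 on the other strand and is read more strongly (mean 2003), moved the other way, at 0.20 with IAA (adjusted p = 7.6e-04), -0.25 with wild-type CTCF (adjusted p = 5.1e-05) and -0.20 with mutated CTCF (adjusted p = 9.9e-04).

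The other GINS genes differed from Gins2. Gins3 had 392.8 and 350 in the untreated control, 300.2 and 301.4 in the IAA control, 353.2 and 337 with wild-type CTCF and 281.1 and 286.7 with mutated CTCF. Here the mutated CTCF libraries were the lowest of all. Gins3 fell with IAA by 0.30 (SE 0.089, adjusted p = 0.0063), and its values with wild-type CTCF (0.20) and mutated CTCF (-0.08) were not called. The fall was -0.218 without untreated control replicate 1 (adjusted p = 0.15). Gins4 was lowest in the untreated control, rose with wild-type CTCF by 0.30 (adjusted p = 0.0018) and with mutated CTCF by 0.21 (adjusted p = 0.025), and was at 0.17 with IAA, not called. Without IAA control replicate 1 the rise with mutated CTCF was 0.153 (adjusted p = 0.23). Gins1 was at 0.15 with mutated CTCF (adjusted p = 0.046), a call kept in 7 of 14 alternative settings; it was 0.0995 under median-of-ratios scaling (adjusted p = 0.15) and 0.0757 without mutated CTCF replicate 2 (adjusted p = 0.49).

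Mcm10 binds the helicase as it starts to unwind. It fell with IAA by 0.26 (SE 0.045, adjusted p = 9.0e-06), from 2019 and 2056 to 1716 and 1679, and this was called in all 14 alternative settings. It was 1859 and 1866 with wild-type CTCF and 2005 and 2019 with mutated CTCF, with log2 changes of 0.13 (adjusted p = 0.021) and 0.24 (adjusted p = 3.7e-05) against the IAA control. The first of these was 0.0771 under median-of-ratios scaling (adjusted p = 0.15). Cdc45, the helicase cofactor, rose with wild-type CTCF by 0.21 (adjusted p = 0.003), as did Ufd1 on the other strand (0.28, adjusted p = 3.0e-04). The kinase Cdc7 was not called in these comparisons. Its activator Dbf4 had 4435 and 4781 in the untreated control, 4280 and 4454 in the IAA control, 4228 and 4102 with wild-type CTCF and 4696 and 4906 with mutated CTCF. Dbf4 was lowest with wild-type CTCF and rose with mutated CTCF against the IAA control by 0.14 (adjusted p = 0.0055), which gave an adjusted p of 0.057 after median-of-ratios rescaling.

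Polymerase and primase genes copy the unwound strands. None of the 9 was called with IAA (37.7% of all genes were), 1 rose and 1 fell with wild-type CTCF (22.2%, against 31.6%), and 2 rose with mutated CTCF (22.2%, against 34.3%). Against the untreated control, 4 were higher and 2 lower with wild-type CTCF (66.7%, against 43.2%), and 3 were higher with mutated CTCF (33.3%, against 37.8%). At the same total these splits turned to 1 higher and 3 lower with the wild-type form and to 0 higher and 2 lower with the mutated form. In the IAA comparison the 2 rescalings gave 1 that rose or 3 that fell. Against the IAA control they gave 3 or 2 that fell and none that rose with wild-type CTCF, and 1 or 2 that rose and 1 that fell with mutated CTCF. Pola1, the catalytic subunit of polymerase alpha, had 27970 and 29275 in the untreated control, 27915 and 28367 in the IAA control, 26054 and 26529 with wild-type CTCF and 27697 and 27425 with mutated CTCF. The wild-type CTCF libraries were the lowest, and Pola1 fell against the IAA control by 0.10 on the log2 scale (SE 0.026, adjusted p = 0.0037). Pole, the leading-strand polymerase, rose with wild-type CTCF by 0.13 (adjusted p = 0.034) and with mutated CTCF by 0.17 (adjusted p = 0.0053). The first was 0.0725 under median-of-ratios scaling (adjusted p = 0.17) and 0.0937 without wild-type CTCF replicate 2 (adjusted p = 0.27). Pold3, an accessory subunit of polymerase delta, had 1888 and 1868 in the untreated control, 1772 and 1807 in the IAA control, 1692 and 1722 with wild-type CTCF and 1930 and 2000 with mutated CTCF. Pold3 rose with mutated CTCF by 0.13 (adjusted p = 0.02), which was 0.0831 under median-of-ratios scaling (adjusted p = 0.11). Its value with wild-type CTCF was -0.07, not called, and -0.124 under that scaling (adjusted p = 0.016). Pold2, another delta subunit and the lowest of the group, had 137.1 and 169, 127.5 and 118.8, 132.9 and 187.2, and 136.9 and 155.2 in the 4 groups. Its values of -0.30 with IAA and 0.36 with wild-type CTCF were not called (adjusted p = 0.088 and 0.051); that with IAA was -0.356 at the same total (adjusted p = 0.034). Pola2, Pold1, Pole2, Prim1 and Prim2 were not called with IAA or with either form against the IAA control, at -0.05 to 0.19.

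The clamp Pcna and its loader, replication factor C, tether polymerases to DNA. With IAA 3 of the 6 genes fell, where 18.4% of all genes did. With wild-type CTCF 5 rose (21.5% of all genes) and with mutated CTCF 4 (22.0% of all genes). The counts under median-of-ratios scaling were 3, 4 and 3. Rfc3 had 416.3 and 473.3 normalized reads in the untreated control, 300.2 and 315.7 in the IAA control, 388.2 and 429 with wild-type CTCF and 352.1 and 363.8 with mutated CTCF. The IAA control was the lowest group and the mutated CTCF group the next, with no overlap between them. Rfc3 fell with IAA by 0.53 (SE 0.086, adjusted p = 3.6e-06) and rose with wild-type CTCF by 0.41 (SE 0.086, adjusted p = 3.1e-04) and with mutated CTCF by 0.22 (SE 0.086, adjusted p = 0.046). The first pair of changes was called in all 14 alternative settings, and the last gave adjusted p-values up to 0.22.

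Rfc5 had 559.2 and 587.9 in the untreated control, 559.8 and 540 in the IAA control, 749.2 and 861.2 with wild-type CTCF and 634.2 and 674.2 with mutated CTCF. The control groups overlapped, and the wild-type CTCF libraries were above all others. Rfc5 rose with wild-type CTCF by 0.55 (SE 0.071, adjusted p = 8.6e-08), the largest rise among the members, and with mutated CTCF by 0.25 (SE 0.071, adjusted p = 0.0049). Its change with IAA was -0.06 and not called. Wsb2, on the other strand, rose with wild-type CTCF by 0.18 (adjusted p = 0.04). Rfc4 fell with IAA by 0.26 (adjusted p = 6.3e-04) and rose with wild-type CTCF by 0.20 (adjusted p = 0.012) and with mutated CTCF by 0.27 (adjusted p = 6.4e-04). Eif4a2, on the other strand and read far more strongly (mean 11310), rose by 0.14 with either form (adjusted p = 5.6e-04 and 5.3e-04) and was at 0.03 with IAA. Pcna fell with IAA by 0.13 (adjusted p = 0.023), and was at -0.0903 without untreated control replicate 2 (adjusted p = 0.24). With wild-type CTCF Pcna rose by 0.14 (adjusted p = 0.023), and was at 0.0793 under median-of-ratios scaling (adjusted p = 0.13). Rfc2 rose with wild-type CTCF by 0.24 (adjusted p = 0.015), and was at 0.165 without IAA control replicate 1 (adjusted p = 0.21). Without wild-type CTCF replicate 2 Rfc4 was at 0.132 (adjusted p = 0.2). Rfc1, the largest loader subunit, had 3441 and 3470 in the untreated control, 3553 and 3720 in the IAA control, 3730 and 3712 with wild-type CTCF and 3998 and 4061 with mutated CTCF, and rose with mutated CTCF by 0.15 (adjusted p = 0.0021).

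Replication protein A coats the unwound strand. Its small subunit gene Rpa3 had 269.1 and 311.2 in the untreated control and 226.3 and 224.4 in the IAA control, and fell with IAA by 0.36 (SE 0.1, adjusted p = 0.0038), or -0.255 without untreated control replicate 2 (adjusted p = 0.14). Its values of 243.9 and 270.7 with wild-type CTCF and 254.9 and 257 with mutated CTCF lay above the IAA control but were not called. Rpa2 fell with IAA by 0.23 (adjusted p = 0.0051) and rose with wild-type CTCF by 0.24 (adjusted p = 0.0057) and with mutated CTCF by 0.27 (adjusted p = 0.0012). Over the 14 alternative settings these values were -0.284 to -0.209, 0.181 to 0.284 and 0.178 to 0.369, each called in 12. Rpa1, the DNA-binding large subunit, had 2508 and 2532, 2510 and 2410, 2673 and 2811, and 2503 and 2518 in the 4 groups. Only wild-type CTCF stood apart, and Rpa1 rose there by 0.16 (adjusted p = 0.0043), or 0.12 without its replicate 2 (adjusted p = 0.096).

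Fen1, which removes the flaps of Okazaki fragments, was the only member called higher with IAA; the number was 0 to 5 over the alternatives. After median-of-ratios rescaling Lig1, Gins4, Orc6 and Pola2 were called higher too. It had 373.6 and 397.4 normalized reads in the untreated control, 464.6 and 448.7 in the IAA control, 489.6 and 526.3 with wild-type CTCF and 456.6 and 447.8 with mutated CTCF. The untreated control was below all other libraries, and the rise with IAA was 0.24 (SE 0.077, adjusted p = 0.011). Without replicate 1 of the untreated control it was 0.2 with an adjusted p of 0.13. Tmem258, on the other strand, was at 0.06 with IAA and not called. Lig1, the ligase that seals the fragments, had 2344 and 2370, 2451 and 2610, 2785 and 2853, and 2822 and 2888 in the 4 groups. Both groups with overexpressed CTCF were above both controls, with rises of 0.16 with wild-type CTCF (adjusted p = 0.0043) and 0.17 with mutated CTCF (adjusted p = 0.0012). Without IAA control replicate 1 these were 0.111 (adjusted p = 0.13) and 0.129 (adjusted p = 0.066).

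Both nucleotide supply genes were called in each of these 3 comparisons, where 37.7%, 31.6% and 34.3% of all genes were. Rrm2 encodes the small subunit of ribonucleotide reductase, whose amount limits the enzyme in S phase. It had 1281 and 1299 in the untreated control, 952.9 and 921.7 in the IAA control, 1277 and 1444 with wild-type CTCF and 1198 and 1326 with mutated CTCF. The IAA control was far below the other 6 libraries, which overlapped. Rrm2 fell with IAA by 0.46 (SE 0.058, adjusted p = 2.4e-08), where its group mean fell by 27.3%. It was higher with wild-type CTCF by 0.53 (SE 0.058, adjusted p = 1.8e-09) and with mutated CTCF by 0.43 (SE 0.058, adjusted p = 2.1e-07). It is the only member called in these 3 comparisons in all 14 alternative settings. Rrm1, the large subunit, had 1935 and 1967, 1828 and 1656, 1902 and 2054, and 1979 and 2021 in the 4 groups. Rrm1 fell with IAA by 0.16 (adjusted p = 0.0072) and rose with wild-type CTCF by 0.18 (adjusted p = 0.0039) and with mutated CTCF by 0.20 (adjusted p = 0.0014). Without IAA control replicate 2 none of these was called: the values were -0.0936 (adjusted p = 0.24), 0.112 (adjusted p = 0.17) and 0.129 (adjusted p = 0.1).

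**Figure D3:**
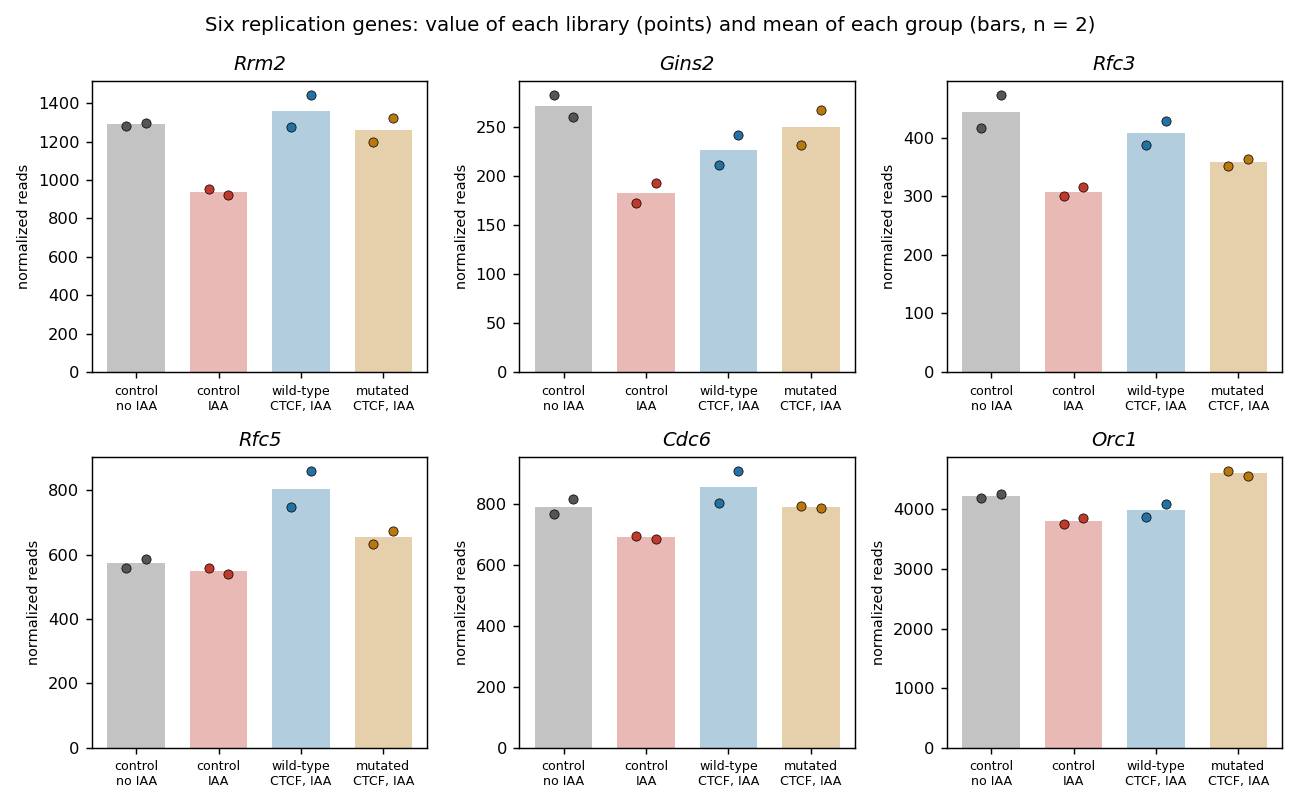
Normalized reads (y axis, from 0) of 6 genes in the 4 groups (x axis), with a point per library and a bar at the mean of 2 replicates. Rrm2, Gins2, Rfc3 and Cdc6 are lowest in the IAA control, Rfc5 is highest with wild-type CTCF and Orc1 is highest with mutated CTCF.

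Timeless and Tipin protect the moving fork. Tipin had 2380 and 2488, 2401 and 2361, 2654 and 2709, and 2724 and 2765 normalized reads in the 4 groups, and rose with wild-type CTCF by 0.17 (adjusted p = 0.0017) and with mutated CTCF by 0.20 (adjusted p = 1.7e-04). Timeless had 590.9 and 616.4, 592 and 568.6, 598.9 and 630.1, and 577.8 and 618.9. Its wild-type CTCF libraries were above those of the IAA control and the other groups overlapped, and it was not called in these comparisons.

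Chaf1a and Chaf1b encode subunits of chromatin assembly factor 1, which places histones on new DNA. Chaf1b had 896 and 912 in the untreated control, 773.1 and 795.2 in the IAA control, 861.1 and 860.1 with wild-type CTCF and 965.4 and 999.5 with mutated CTCF. No group overlapped another. Chaf1b fell with IAA by 0.21 (SE 0.058, adjusted p = 0.0048) and rose with mutated CTCF by 0.32 (SE 0.058, adjusted p = 2.5e-05), and its value with wild-type CTCF was 0.13, not called. Chaf1a had 1683 and 1665, 1558 and 1634, 1697 and 1780, and 1752 and 1847 in the 4 groups. Chaf1a rose with mutated CTCF by 0.17 (adjusted p = 0.0047). With wild-type CTCF it was at 0.12 (adjusted p = 0.049), a call kept in 5 of 14 alternative settings, with 0.067 under median-of-ratios scaling (adjusted p = 0.22) and 0.0886 without wild-type CTCF replicate 2 or without IAA control replicate 1 (adjusted p = 0.31 each).

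Members with and without an E2F word in the promoter were counted side by side. With IAA 4 of the 9 with a word and 10 of the 30 without one fell, where 18.4% of all genes did. With wild-type CTCF 5 of 9 and 13 of 30 rose (21.5% of all genes), and with mutated CTCF 7 of 9 and 15 of 30 (22.0% of all genes). Their median log2 changes were -0.06 and -0.06 with IAA, 0.18 and 0.13 with wild-type CTCF, and 0.16 and 0.15 with mutated CTCF. No test was made of these lists.

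The direct comparison of the 2 forms of CTCF sets their overexpression lines side by side. In it the mutation, the line and the level of the construct cannot be told apart. With mutated against wild-type CTCF 14 of 48 members were called (29.2%, against 34.7% of all genes tested), 9 higher (16.3% of all genes) and 5 lower (18.4%), with a median of 0.011 beside -0.0087 for all genes. The share of members was thus not above the background. Without the variance trend 4 members were called (8.33%, against 20.6% of all genes). Leaving out mutated CTCF replicate 1 left 7 called (14.6%, against 25.2% of all genes), its replicate 2 left 9 (18.8%, against 28.5%) and wild-type CTCF replicate 2 left 8 (16.7%, against 27.0%). The direction split moved as well: it was 7 higher and 8 lower without wild-type CTCF replicate 1, 7 and 1 without its replicate 2, 6 and 1 without mutated CTCF replicate 1, and 4 and 5 without its replicate 2. Of the called members, Mcm7 had overlapping libraries, since mutated CTCF replicate 2 (1499) exceeded wild-type CTCF replicate 1 (1490).

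The origin recognition genes were higher with the mutated form in 3 of 6 cases and lower in none, also after either rescaling, where 16.3% of all genes were higher and 18.4% lower. Orc1 was higher by 0.21 (SE 0.038, adjusted p = 2.5e-05), Orc5 by 0.16 (adjusted p = 1.9e-04) and Orc4 by 0.11 (adjusted p = 0.023). Without wild-type CTCF replicate 1 the value of Orc4 was 0.0695 (adjusted p = 0.28). Dbf4 was higher by 0.20 (SE 0.039, adjusted p = 6.2e-05), Pold3 by 0.20 (SE 0.046, adjusted p = 5.8e-04) and Chaf1b by 0.19 (SE 0.058, adjusted p = 0.0096). Orc1 and Pold3 were called in all 14 alternative settings. The adjusted p of Dbf4 was 0.063 without the variance trend. Rfc1, Mcm6 and Pola1 were higher by 0.11, 0.11 and 0.07 (adjusted p = 0.017, 0.036 and 0.04), and Pola1 was at 0.055 without wild-type CTCF replicate 1 (adjusted p = 0.24).

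Lower with the mutated form were Rfc5 by a log2 change of -0.30 (SE 0.071, adjusted p = 9.9e-04), Gins3 by -0.28 (SE 0.089, adjusted p = 0.012) and Mcm2 by -0.23 (SE 0.061, adjusted p = 0.0031). Mcm7 was at -0.16 (adjusted p = 0.026) and Rpa1 at -0.13 (adjusted p = 0.018), or -0.0901 without wild-type CTCF replicate 2 (adjusted p = 0.21). Each of the 5 calls among the MCM and clamp loader genes was lost without at least 1 library. Without mutated CTCF replicate 1, Mcm7 was at -0.0488 (adjusted p = 0.64) and Mcm2 at -0.154 (adjusted p = 0.11). Mcm6 was at 0.0615 without wild-type CTCF replicate 1 (adjusted p = 0.38) and at 0.0713 without mutated CTCF replicate 2 (adjusted p = 0.33). Rfc1 kept values of 0.104 to 0.126 in all 14 alternative settings, with adjusted p-values up to 0.13, and was called in 10. Without wild-type CTCF replicate 2, the values of Rfc5, Mcm2 and Mcm7 were -0.196, -0.106 and -0.106, with adjusted p-values of 0.068, 0.24 and 0.24. Ap4m1 on the other strand of Mcm7 was lower as well, at -0.30 (adjusted p = 0.041).

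Gene length differed between the members called in the 2 directions. The 9 higher members were 22.2 to 327 kb long (median 39.5 kb) and the 5 lower ones 7.84 to 50.2 kb (median 11.6 kb). Across the 48 members the Spearman correlation of the log2 change with gene length was 0.43 in this comparison, against 0.04 across 13130 protein-coding genes. It was -0.61 (against -0.20) for wild-type CTCF, -0.20 (against -0.15) for mutated CTCF and 0.15 (against 0.05) for IAA. Over single pairs of libraries it ran from 0.17 to 0.57 for mutated against wild-type CTCF, from -0.37 to -0.64 for wild-type CTCF against the IAA control, from 0.01 to -0.33 for mutated CTCF and from 0.10 to 0.21 for IAA. These are descriptions across genes that share the same libraries and are not independent.

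**Figure D4:**
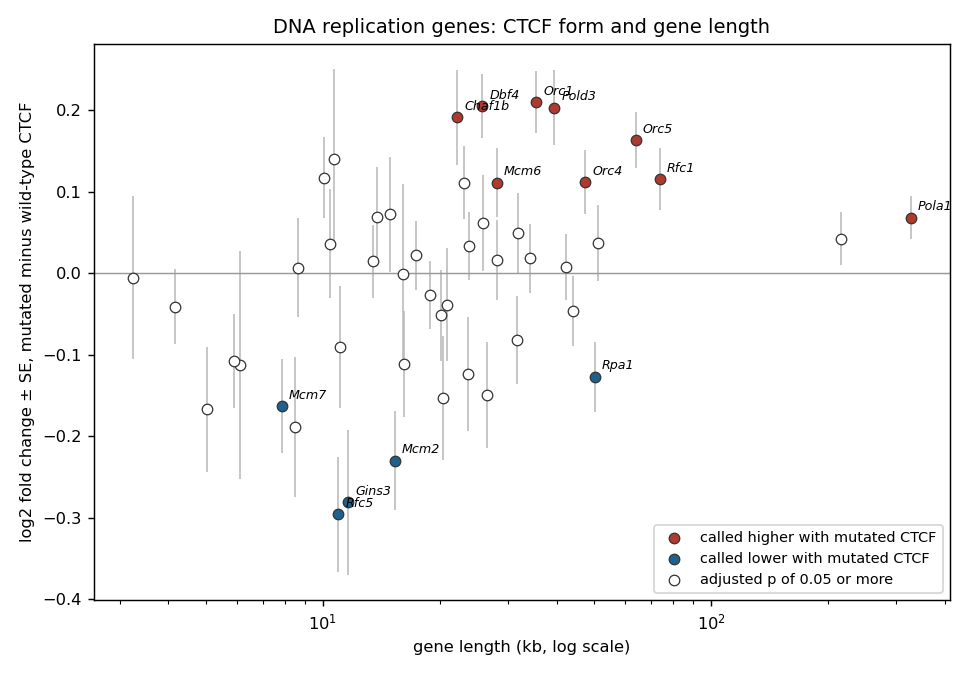
Log2 fold change of mutated against wild-type CTCF (y axis, with its standard error) against gene length (x axis, log scale) for the 48 members. The 9 members called higher are 22.2 kb or longer, and 4 of the 5 called lower are shorter than that, with Rpa1 (50.2 kb) as the exception.

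The groups with overexpressed CTCF were also set against the untreated control, and some members differed. These 2 comparisons share the untreated libraries. They are between lines, and the lines with overexpressed CTCF had no untreated libraries of their own. Effects of the line, the overexpression and IAA cannot be told apart here. With wild-type CTCF 27 of 48 members were called (56.2%, against 43.2% of all genes), 20 higher (27.6%) and 7 lower (15.6%). Without the variance trend this count was 7 (14.6%, against 30.8%). It was 14 without untreated control replicate 1 (29.2%, against 31.6%), and 16 (33.3%) without its replicate 2 (against 32.2%) or without wild-type CTCF replicate 2 (against 33.6%). The split was 9 higher and 7 lower without wild-type CTCF replicate 2 and 22 and 2 without its replicate 1. With mutated CTCF 18 were called (37.5%, against 37.8%), 16 higher (24.0%) and 2 lower (13.7%). The split depended on the scaling: of the called members 74.1% were higher with wild-type CTCF, but 53.8% after median-of-ratios rescaling and 41.7% after rescaling to the same total, and with mutated CTCF 88.9%, 81.2% and 53.3%. For the comparisons with the IAA control, 6.25% of the calls with IAA and 92.3% of those with wild-type CTCF were higher. After median-of-ratios rescaling 5 of 20 calls with IAA were higher, and 78.3% of those with wild-type CTCF.

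Gins4, Orc6, Lig1 and Fen1 were above the untreated control in both groups. Gins4 was higher by 0.47 with wild-type CTCF (adjusted p = 2.2e-06) and 0.38 with mutated CTCF (adjusted p = 7.3e-05), and Orc6 by 0.28 and 0.29 (adjusted p = 2.2e-04 and 1.8e-04). Lig1 was higher by 0.26 and 0.28 (adjusted p = 4.0e-06 and 1.4e-06), and Fen1 by 0.40 and 0.23 (adjusted p = 5.5e-05 and 0.016). Fen1 with mutated CTCF was at 0.147 at the same total (adjusted p = 0.098) and at 0.186 without untreated control replicate 1 (adjusted p = 0.16). Vps35, which overlaps Orc6 on the other strand, was at 0.10 with IAA (adjusted p = 0.042) and at 0.22 with mutated CTCF against the IAA control (adjusted p = 4.2e-05). Mcm3, Mcm4, Mcm5 and Mcm7 were higher in both groups as well, by 0.20, 0.16, 0.22 and 0.32 with wild-type CTCF and 0.22, 0.18, 0.19 and 0.16 with mutated CTCF. The last value, for Mcm7, was 0.109 under median-of-ratios scaling (adjusted p = 0.086), 0.0745 at the same total (adjusted p = 0.27) and 0.0434 without mutated CTCF replicate 2 (adjusted p = 0.67). Mcm4 at the same total was at 0.0804 and 0.0938 (adjusted p = 0.1 and 0.061). Rrm2 was at 0.07 and -0.03 and Cdc6 at 0.11 and 0.00, none called.

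Below the untreated control with mutated CTCF were Gins3 (-0.38, adjusted p = 5.7e-04) and Rfc3 (-0.31, adjusted p = 0.0037), the latter at -0.217 without untreated control replicate 2 (adjusted p = 0.14). With wild-type CTCF Gins2 (-0.26, adjusted p = 0.046), Dbf4 (-0.15, adjusted p = 0.0026), Pold3 (-0.14, adjusted p = 0.014), Mcm10 (-0.13, adjusted p = 0.018), Pola1 (-0.12, adjusted p = 2.1e-04), Orc4 (-0.10, adjusted p = 0.044) and Orc5 (-0.10, adjusted p = 0.012) were lower. Without wild-type CTCF replicate 1 Gins2 was at -0.163 (adjusted p = 0.32) and Orc4 at -0.0532 (adjusted p = 0.39). Without untreated control replicate 2 Dbf4 was at -0.0909 (adjusted p = 0.11), Orc4 at -0.0585 (adjusted p = 0.33) and Orc5 at -0.0616 (adjusted p = 0.18). Pole2, Pola2 and Rfc5 were higher with wild-type CTCF, by 0.21, 0.24 and 0.49 (adjusted p = 0.0094, 0.0055 and 4.1e-07). Pole2 was at 0.124 at the same total (adjusted p = 0.083), and Pola2 at 0.156 without wild-type CTCF replicate 2 (adjusted p = 0.14).

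Genes outside the set that act with it were described from lists chosen with earlier results known. Of 25 other replication factors tested, 5 rose and 3 fell with IAA, 7 rose and 2 fell with wild-type CTCF, 9 rose and 1 fell with mutated CTCF, and 6 were higher and 0 lower with the mutated form. These are 32.0%, 36.0%, 40.0% and 24.0% of the list, against 37.7%, 31.6%, 34.3% and 34.7% of all genes. Under median-of-ratios scaling 5 rose and 5 fell with the wild-type form, and at the same total 4 rose and 6 fell with IAA. Asf1a, a histone chaperone, fell with IAA by 0.32 (adjusted p = 1.5e-06), and Dna2, a nuclease for long flaps, rose by 0.32 (adjusted p = 1.4e-04). Mcm8 was higher with mutated than with wild-type CTCF by 0.34 (adjusted p = 2.0e-05). Of 13 nucleotide synthesis genes 3 rose and 3 fell with IAA, and 6 and 4 rose with wild-type and mutated CTCF, where 19.4% of all genes rose and 18.4% fell with IAA and 21.5% and 22.0% rose in the other comparisons. With mutated against wild-type CTCF 2 of the 13 were higher and 4 lower (46.2% called, against 34.7% of all genes). Rrm2b, the reductase subunit used outside S phase, fell with IAA by 0.54 (adjusted p = 5.9e-08), as its S-phase counterpart Rrm2 did. Rrm2b rose with mutated CTCF by 0.57 (adjusted p = 3.5e-08) and was higher there than with wild-type CTCF by 0.68 (adjusted p = 5.1e-10).

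The E2F and pocket protein genes, whose products control replication genes, fell in 7 of 13 cases with IAA and rose in 1 (61.5% called, against 37.7% of all genes). They rose in 8 and fell in 1 with wild-type CTCF (69.2%, against 31.6%), and rose in 4 and fell in 2 with mutated CTCF (46.2%, against 34.3%). Under median-of-ratios scaling 5 of them rose and 1 fell with wild-type CTCF. E2f2 had 305.1 and 293.1 normalized reads in the untreated control, 148.9 and 189.2 in the IAA control, 263.1 and 232.1 with wild-type CTCF and 238.2 and 237.3 with mutated CTCF. It was lowest in the IAA control without overlap, and fell there by 0.83 (SE 0.11, adjusted p = 5.5e-08). E2f3, an activator, had 5371 and 5591, 4958 and 5076, 6814 and 6976, and 5421 and 5542 in the 4 groups. It was highest with wild-type CTCF, and the mutated form was below the wild-type form by a log2 change of -0.33 (adjusted p = 5.5e-10). Of 16 genes of G1/S control 8 fell and 2 rose with IAA (62.5% called, against 37.7%), 11 rose with the wild-type form (68.8% called, against 31.6%) and 8 with the mutated form (50% called, against 34.3%). Cdk6 fell with IAA by 0.82 (adjusted p = 1.2e-21) and Cdkn1a, the inhibitor p21, by 0.71 (adjusted p = 3.5e-14). Myc rose by 1.90 (adjusted p = 7.8e-07) from 6.687 and 12.07 to 34.54 and 38.5, a low level in every library. Ccnd1, a D-type cyclin, was at 588.4 and 686.8 with wild-type CTCF and 295.7 and 351.9 with mutated CTCF, a log2 difference of -0.98 (adjusted p = 1.4e-11).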

How the data were processed

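TT-seq was measured in 8 libraries, 2 in each of 4 groups taken from the sample titles. The authors deposited a single table of normalized signal for 16940 genes; per the submitters' processing notes Trim Galore, STAR, featureCounts, DESeq2 and mm10 were used, with no roles or versions given. All values of a library were whole multiples of a step of its own (tolerance 0.02 reads), so the deposited signal appears to be reads divided by 1 factor per library, and these reads gave the depth. The table had 0 columns of other samples. Each value + 1 was log2-transformed, and limma 3.58.1 (R 4.3.3) fitted 1 coefficient per group to the 15818 genes with a mean of at least 10, with a variance trend and 4 residual degrees of freedom. p-values were Benjamini-Hochberg adjusted over all genes tested in each of 6 comparisons, and the threshold was 0.05. The script was tested on simulated data. Each fold change printed is thus a difference of log2(value + 1), which understates changes of low genes.

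The 48 members were matched by symbol and had the same ID version in GENCODE M21 (GRCm38), the source of gene spans; promoters were RefSeq's, GRCm38.p6. The members and lists were chosen with earlier results of these data known. Values per library are given for the MCM2-7 genes, for the 3 highest and 3 lowest called, non-overlapping members of the 4 main comparisons, and for the highest and lowest member of each role; Mcm10 and other members outside that rule were chosen after their values were seen. Alternatives were other pseudocounts (0.5, 10), filters (none, 50), rescalings, a fit of only the groups compared, dropping the variance trend, a replicate block, and dropping single libraries.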

Additional observations from a re-analysis of the deposited data

How the results depend on the processing

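Counts are of members called, in the order IAA, wild-type CTCF, mutated CTCF (each against its control), mutated against wild-type CTCF, then wild-type and mutated CTCF against the untreated control; the main counts were 16, 26, 28, 14, 27 and 18. Without the variance trend they were 9, 5, 9, 4, 7 and 8. With 1 library left out they ran from 10 to 14, 12 to 28, 16 to 25, 7 to 15, 14 to 24 and 13 to 16. With a replicate block they were 19, 28, 31, 17, 28 and 20; libraries of 1 number correlated, across genes, in their distance from the group mean by 0.0037 on average (from -0.022 to 0.028), while replicate 2 read higher in every group (all-gene medians of 0.026 to 0.05). With block and median-of-ratios rescaling together the counts were 20, 23, 22, 17, 26 and 16, as with the rescaling alone. The samples are treated as sharing only a number. The members' median log2 change ran, with 1 library left out, from -0.0653 to -0.0233, 0.108 to 0.178, 0.136 to 0.19, -0.0352 to 0.0462, 0.0226 to 0.112 and 0.0386 to 0.0917. After median-of-ratios rescaling, with or without the replicate block, it was 0.0849 and 0.105 for wild-type and mutated CTCF and 0.0086 and 0.0108 against the untreated control. After rescaling to the same total it was -0.108 with IAA, 0.124 for mutated CTCF and -0.0195 and -0.0233 against the untreated control. Prim2 with mutated CTCF against the untreated control turned to -0.0653 (adjusted p = 0.044) from 0.02, not called. The causes were not tested. No called member changed sign in any setting, but the filters, the variance trend and the replicate block leave a log2 change as it is. The members called in every setting numbered 5, 4, 9, 2, 7 and 6. A count test (edgeR or DESeq2) on recovered reads was not run. Groups of 2 limit the precision of each value.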

Other observations

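Genes of mitosis, outside the replication set, were described from a list chosen with earlier results known. Of 17 tested, 5 fell and 0 rose with IAA, 6 rose and 1 fell with wild-type CTCF, and 10 rose and 0 fell with mutated CTCF; 4 were higher and 0 lower with the mutated than with the wild-type form. These are 29.4%, 41.2%, 58.8% and 23.5% of the list, against 37.7%, 31.6%, 34.3% and 34.7% of all genes. Under median-of-ratios scaling 6 fell with IAA, 3 rose and 1 fell with wild-type CTCF, and 6 rose with mutated CTCF. At the same total 8 fell with IAA, and 9 rose with mutated CTCF. Either rescaling gave 6 that were higher with the mutated than with the wild-type form. Cenpf, a kinetochore protein, had 5226 and 5461 normalized reads in the untreated control, 4355 and 4392 in the IAA control, 4039 and 4018 with wild-type CTCF and 4965 and 4908 with mutated CTCF. No group overlapped another, and Cenpf fell with IAA by 0.29 on the log2 scale (limma adjusted p = 1.8e-08). It was higher with the mutated than with the wild-type form by 0.29 (adjusted p = 2.1e-08). Ccnb2, a B-type cyclin, had 1004 and 1021, 849.3 and 918.4, 837.5 and 841.9, and 1001 and 1063 in the same order. It was lowest with wild-type CTCF, and higher with the mutated form by 0.30 (adjusted p = 1.1e-04). Kif20a, a mitotic kinesin, rose with wild-type CTCF by 0.28 (adjusted p = 3.2e-04) and with mutated CTCF by 0.21 (adjusted p = 0.0039).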
